A study of Mus musculus with 6 samples.

Results

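The cells described here were αβ T cells of mouse liver that carried a transcript of an innate-like T cell regulator but not the invariant receptor of natural killer T (NKT) cells. Members were chosen by measured receptor contigs and transcripts. A cell counted as a member when its barcode had a sequenced T cell receptor (TCR) α and a β contig, none of its α contigs joined TRAV11 or TRAV11D to TRAJ18, at least 1 unique molecular identifier (UMI) of Zbtb16 or Zfp683 was counted, and Cd79a of B cells had none. The rule chose 608 barcodes of 23860. Of these, 29 were called doublets and left out, none failed the filters on genes or mitochondrial UMIs, and 579 members remained among 5979 αβ T cells with neither the invariant receptor nor Cd79a, and 22689 kept cells. WT HFD held 142 of the members, WT HFD+HDCA held 179 and iNKT KO HFD+HDCA held 258. The remaining 5400 αβ T cells without the invariant receptor, called other αβ T cells, had neither transcript.

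The study asked how the bile acid hyodeoxycholic acid (HDCA), given with a high-fat diet (HFD), acts on liver immune cells with and without invariant NKT (iNKT) cells. WT HFD was from wild-type mice on a 60% HFD, WT HFD+HDCA from wild-type mice on that diet with 0.25% HDCA, and iNKT KO HFD+HDCA from Ja18-/- mice, which cannot make the iNKT receptor, on the diet with HDCA. Feeding lasted 12 weeks, and all groups described here ate the HFD, since the normal-diet mice of the design text were not analysed here. CD45+ liver mononuclear cells were sorted (10000 cells each), although the treatment text names CD4+ lymphocytes, and each group gave 1 RNA and 1 TCR library. How many mice were behind a library, their age and which Jα18-deficient line was used are not given in the sources used here. Every comparison is therefore between single libraries, with no replicate check and no test, and the 95% intervals in parentheses (exact Clopper-Pearson for shares, exact Poisson for levels, conditional exact for ratios) cover counting error only.

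Innate-like T cells leave the thymus already in an effector state and can act quickly through cytokines. PLZF, the protein of Zbtb16, directs this programme in iNKT cells, mucosal-associated invariant T (MAIT) cells and some γδ T cells, and Hobit, the protein of Zfp683, marks NKT cells and tissue-resident lymphocytes of the mouse liver. Type I NKT cells see lipids on CD1d through the TRAV11–TRAJ18 α chain, MAIT cells see vitamin B2 metabolites on MR1 through TRAV1–TRAJ33, and both are common or known residents of liver. A further CD1d-restricted receptor, which joins a TRAV13 family segment (Vα10) to TRAJ50 and pairs with TRBV13 (Vβ8), has been described in mice lacking Jα18, and the original Jα18-deficient line is known to use few Jα segments upstream of Jα18.

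The α repertoire of the knockout library stood apart from both WT libraries, which bears on every comparison with it. Among members, segments TRAJ19 to TRAJ49 made up 64.5% of α contigs in WT HFD and 60.0% in WT HFD+HDCA, but 1.83% in the knockout. Counts per cell were otherwise similar: members had a median of 7720, 7899 and 7236.5 UMIs in the 3 libraries, and other αβ T cells 7011, 7035 and 6931.5. The RNA libraries shared 73 barcodes (both WT), 67 (WT HFD with the knockout) and 93 (WT HFD+HDCA with the knockout), none of them with the same receptor, and no barcode was a member in more than 1 library. No clonotype of members was found in more than 1 library.

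The receptor found most often among members was TRAV13N-3 joined to TRAJ50, and it was found in the knockout only as far as these 3 libraries show. It is shown here because 87 knockout cells carried it and 77 of them were members, which was 29.8% of all knockout members (24.3% to 35.8%). No WT cell joined TRAV13N-3 to TRAJ50; TRAV13N-3 itself had 5 contigs in WT HFD and 0 in WT HFD+HDCA, whereas the knockout had 87, all with TRAJ50. All 87 α contigs had a CDR3 of 39 bases, in 9 different nucleotide sequences with 7 different translations. The 5 seen in 3 or more cells follow, 5′ to 3′, with capitals marking bases outside the start and end shared by at least 20% of distinct CDR3s that use the same V or J segment (TRA is on chromosome 14, and V names follow the authors' reference, in which duplicated segments are nearly identical).
J50-1: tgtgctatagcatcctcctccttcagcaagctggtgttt
J50-2: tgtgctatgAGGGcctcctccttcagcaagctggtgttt
J50-3: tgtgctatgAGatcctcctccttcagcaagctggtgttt
J50-4: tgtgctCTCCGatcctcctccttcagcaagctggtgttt
J50-5: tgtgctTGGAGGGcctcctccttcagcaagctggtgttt
For reference, the invariant CDR3 of iNKT-type cells, in 315 WT contigs, has 45 bases.
iNKT-type: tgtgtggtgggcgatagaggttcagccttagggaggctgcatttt
J50-1 has no base outside the shared start and end, and the others differ from it only in the few bases at the junction. It was in 52 cells, 48 of them members, J50-2 in 14 cells with 11 members, J50-3 in 7 with 6, J50-4 in 6 with 6 and J50-5 in 3 with 2. The nucleotides of J50-1 also occurred once in WT HFD+HDCA, with TRAV13-2 and a β chain outside TRBV13, and that cell was a member.

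Every one of the 87 β contigs of these cells used TRBV13, 51 of them TRBV13-1 and 36 TRBV13-2 (35 of the 36 carry the authors' double label TRBV12-2+TRBV13-2). They held 13 different β CDR3s, and the cells fell into 14 clonotypes, of which 6 were single cells. A clonotype here is the set of nucleotide CDR3s of all α and β contigs of a cell. The 2 largest, with 37 and 15 cells, carried J50-1 with the following β CDR3s (TRB is on chromosome 6), shown because the same α chain met different β chains.
Knockout clone 1 β, TRBV13-1 with TRBJ2-1: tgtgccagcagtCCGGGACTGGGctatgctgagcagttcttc
Knockout clone 2 β, TRBV13-2 with TRBJ2-1: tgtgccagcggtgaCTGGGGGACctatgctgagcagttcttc
The α contigs rested on few molecules, with a median of 2 UMIs and a minimum of 1. Among WT cells, 8 in WT HFD and 7 in WT HFD+HDCA joined another TRAV13 segment to TRAJ50, and 0 and 1 of them were members.

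Members made up a larger share of the αβ T cells without the invariant receptor in the knockout than in either WT library. They were 8.15% of such cells in WT HFD (6.91% to 9.53%), 7.12% in WT HFD+HDCA (6.15% to 8.20%) and 15.0% in the knockout (13.3% to 16.8%). Without the TRAV13–TRAJ50 cells, an alternative chosen after seeing the data, the shares were 8.18%, 7.10% and 11.1% (9.59% to 12.7% in the knockout). The WT intervals overlapped each other and the knockout interval lay above both, in each version. As a share of all kept cells, members were 2.29%, 1.85% and 3.79%. These shares describe what the rule selected and carry no test. Among NK or ILC1 cells without a TCR contig, Zfp683 was seen in 70 of 786 in WT HFD and 94 of 1342 in WT HFD+HDCA. The knockout had it in 268 of 1041 such cells (25.7%). Myeloid cells without a TCR contig had Zfp683 in 1 of 334, 0 of 697 and 2 of 341. Whether a Zfp683 difference that is not limited to T cells raised the knockout share of members was not tested.

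Most members qualified through Zfp683, and many through a single UMI. Zfp683 was seen without Zbtb16 in 104, 117 and 186 members, Zbtb16 without Zfp683 in 26, 38 and 26, and both in 12, 24 and 46. At the threshold, 82, 112 and 98 members had exactly 1 UMI of the 2 genes together, whereas all other αβ T cells had 0, and 30, 36 and 114 members had 3 or more. The background of the rule was read in cells with Cd79a and no TCR contig, which are B cells and should lack both genes: 1.28%, 1.72% and 1.85% had a UMI of either gene, at median depths of 4525, 4414 and 4256.5 UMIs. Among iNKT-type cells, a positive reference, 80.7% and 88.7% of the WT cells had one. Thinned to 2000 UMIs per cell, leaving out the 5, 7 and 12 shallower cells, the expected share over random draws in αβ T cells was 3.21%, 2.81% and 7.86%, in B cells 0.407%, 0.652% and 0.705%, and in WT iNKT-type cells 45.8% and 51.3%. The share in αβ T cells was above that in B cells in every library at equal depth, and at 2000 UMIs about as many iNKT-type cells lacked a UMI of either gene as had one.

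**Figure D1:**
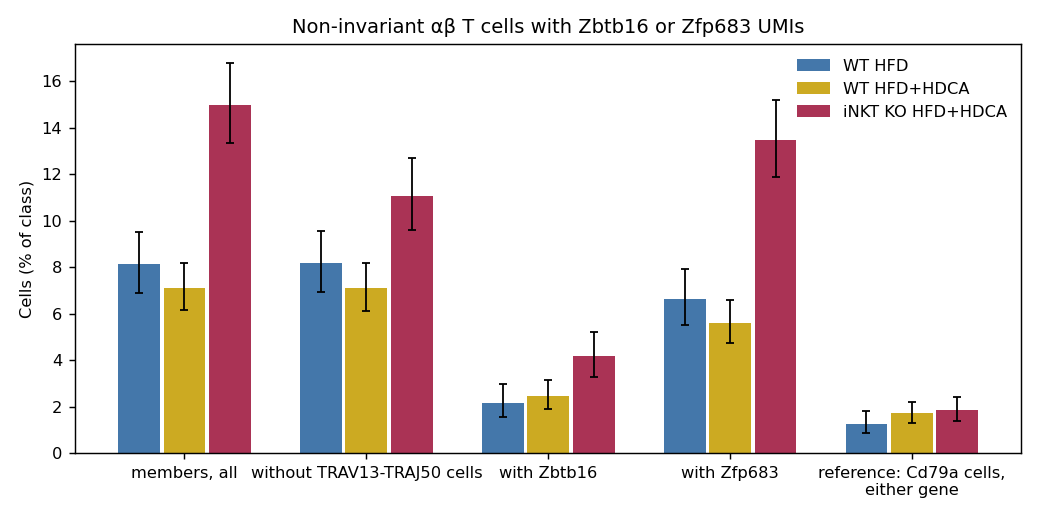
Bars give the share of αβ T cells without the invariant receptor (vertical axis, %) that were members, members without TRAV13–TRAJ50 cells, or had Zbtb16 or Zfp683, and at the right the share of B cells with either gene, by library, with exact 95% intervals. The knockout stands at 15.0%, above WT HFD at 8.15% and WT HFD+HDCA at 7.12%, and the B cells lie at 1.28%, 1.72% and 1.85%.

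The label was checked against Cxcr6 and Il4, the 2 markers that the rule did not use. Cxcr6, the chemokine receptor that holds NKT cells in liver sinusoids, was seen in 76.1%, 76.0% and 86.8% of members, in 25.2%, 32.9% and 25.5% of other αβ T cells, and in 95.7% and 94.7% of WT iNKT-type cells. Its level was 403, 393 and 439.7 CPM (UMIs of the gene scaled to the summed UMIs of the class) in members and 89.8, 100.4 and 75.3 CPM in other αβ T cells. Il4, the type 2 cytokine that NKT cells can transcribe at rest, was seen in 8 members of WT HFD (5.63%, 2.46% to 10.8%), 18 of WT HFD+HDCA (10.1%, 6.07% to 15.4%) and 58 of the knockout (22.5%, 17.5% to 28.1%). In other αβ T cells Il4 was seen in 0.250%, 0.214% and 1.02%, and in WT iNKT-type cells in 37.9% and 38.1%. Both markers were thus more frequent in members than in other αβ T cells of the same library and less frequent than in iNKT-type cells. Il4 was the more uneven of the pair: most WT members had none, and in the knockout its share without TRAV13–TRAJ50 cells was 14.9%.

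The rule itself removed every cell with a TRAV11–TRAJ18 contig. Among the kept cells of the knockout, 1 was of the iNKT type (7279 UMIs), although Ja18-/- mice cannot make that receptor. How this cell came to be there was not tested. Traj18 and Trav11 transcripts were each seen in 0, 1 and 0 members. In the WT iNKT-type cells Traj18 was seen in 31.4% and 20.1% and Trav11 in 17.7% and 12.7%, so these transcripts miss most cells with the receptor, while other αβ T cells had Traj18 in 17, 27 and 0 cells and Trav11 in none. Joins of TRAJ18 to V segments other than TRAV11 made up 1.94%, 4.50% and 0% of the α contigs of members. MAIT-type receptors were the α chain of 3 members, 2 in WT HFD and 1 in WT HFD+HDCA, all with Zbtb16 and Cxcr6 and with the same α CDR3, and of no other αβ T cell.
MAIT-type: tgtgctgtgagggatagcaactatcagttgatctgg
Foxp3, the lineage factor of regulatory T cells, was seen in 2, 5 and 5 members, a share of 1.41%, 2.79% and 1.94%, against 2.56%, 4.03% and 3.14% of other αβ T cells. The regulatory T list as a whole summed to 605, 608 and 516 CPM in members and 500.3, 586 and 431 CPM in other αβ T cells, and was higher in members for 8, 5 and 5 of its 11 genes (median log2 0.28, −0.29 and −0.31).

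CD4 and CD8 coreceptors were missing more often in members than in other αβ T cells, and most often in the knockout. Neither Cd4, Cd8a nor Cd8b1 was seen in 23.2% of members in WT HFD (16.6% to 31.1%), 34.6% in WT HFD+HDCA (27.7% to 42.1%) and 53.9% in the knockout (47.6% to 60.1%), while 15.9%, 17.0% and 13.7% of other αβ T cells had neither. CD8 transcripts alone were seen in 40.1%, 38.0% and 26.4% of members and Cd4 alone in 33.8%, 25.1% and 17.8%. Leaving out TRAV13–TRAJ50 cells, the knockout share with neither was 44.8% (37.4% to 52.3%). Members with Zbtb16 had neither more often (39.5%, 48.4% and 61.1%) than members with Zfp683 only (17.3%, 27.4% and 51.1%). A missing coreceptor transcript is not a missing protein, and at lower depth the share grows.

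Within every library the members had a transcriptome that differed widely from that of the other αβ T cells. Of 9960 genes with at least 50 UMIs over members and other αβ T cells in every library, 140 (1.41%) were at least 2-fold higher in members in all 3 libraries and 53 (0.532%) were at least 2-fold lower. In single libraries the share was 5.54% higher and 3.23% lower in WT HFD, 4.16% and 2.67% in WT HFD+HDCA, and 5.61% and 3.8% in the knockout. Since measured transcripts chose the members, these counts and the ratios that follow are descriptions.

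By the mean ratio over the libraries, Apoe, Tmem273, Mmp9, Sulf2 and Atp8a2 ranked highest in members, followed by Klra9, Itga1 and P2rx7. Itga1, the α1 integrin that binds collagen and marks resident lymphocytes, was at 132, 79.8 and 204 CPM in members and 12.3, 15.4 and 14.2 CPM in other αβ T cells, a ratio of 10.7 (8.56 to 13.4), 5.17 (4.16 to 6.39) and 14.4 (12.0 to 17.4). P2rx7, the ATP-gated channel that makes resident T cells prone to death on tissue damage, was at 108, 68.0 and 126 CPM against 13.3, 9.42 and 12.7 CPM. Klra9, a Ly49 receptor, was at 99.7, 63.7 and 127 CPM against 5.75, 12.7 and 10.7 CPM. For each of the 3 genes, members were higher in every library, with the smallest ratio in WT HFD+HDCA.

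Mmp9, a secreted matrix protease, was at 29.0, 29.7 and 115 CPM in members and 1.05, 2.45 and 4.87 CPM in other αβ T cells. Sulf2, an enzyme that trims heparan sulfate, was at 18.8, 16.7 and 63.7 CPM against 2.59, 1.67 and 2.57 CPM. Atp8a2, a phospholipid flippase, was at 79.3, 66.2 and 195 CPM against 8.66, 7.36 and 11.4 CPM. Asb2, a subunit of a ubiquitin ligase, had ratios of 8.16, 4.07 and 12.3, and Tmem273, a membrane protein by name, of 18.4, 18.4 and 29.7. Tmem176a and Tmem176b, membrane proteins also found in myeloid cells, had ratios of 10.4, 4.74 and 8.03 and of 9.06, 4.07 and 8.80. Each of these was seen in at least 17 members of every library, so none rested on a few cells.

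Apoe and Csf1r stood apart from that pattern. Apoe, an apolipoprotein of macrophages and hepatocytes, had ratios of 21.7, 44.6 and 13.2, but was seen in 8, 14 and 11 members, and Csf1r, the receptor that maintains macrophages, had ratios of 6.47, 15.7 and 4.33 from 7, 12 and 7 members. Myeloid markers summed to 794, 995 and 837 CPM in members and 386, 515 and 1072 CPM in other αβ T cells, with 7, 8 and 6 of the 11 listed genes seen and Clec4f and Vsig4 of Kupffer cells at 0 in all members. In 24 of 579 members (4.15%), against 33 of 5400 other αβ T cells (0.611%), at least 3 UMIs of Lyz2 and Csf1r were found together, and 22 of the 24 had Zbtb16, which was seen in 24.6%, 23.4% and 26.7% of myeloid cells without a TCR contig. Without cells holding myeloid or NK transcripts, chosen after seeing the data, the Apoe ratio in WT HFD was 0.515 (0.0125 to 3.16), while in the other libraries it was above 1, with an interval that held 1 in WT HFD+HDCA, and Csf1r was at 0 in the knockout members. That alternative removes cells by Csf1r and Lyz2 themselves, so the Csf1r value follows in part from its construction.

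NK transcripts also moved with membership. NK and ILC1 markers in members summed to 1345 CPM in WT HFD, 931 CPM in WT HFD+HDCA and 1074 CPM in the knockout, and to 481, 397 and 379 CPM in other αβ T cells, with 8, 9 and 9 of the 9 listed genes seen. At least 3 UMIs of Ncr1 and Tyrobp together were found in 88 members (15.2%) and 191 other αβ T cells (3.54%). Members with myeloid or NK transcripts, 92 in all (15.9%), had a median of 11042, 9700 and 9555 UMIs, against 7225, 7714 and 6953 in members without. Whether these are T cells expressing such genes or droplets holding a second cell was not tested. In the 487 members without them Cxcr6 was seen in 75.7%, 74.3% and 87.1%, Il4 in 6.96%, 11.5% and 25.0%, and Itga1 in 47.0%, 30.4% and 62.1%, close to the values of all members. Klrb1c (NK1.1) was seen in 19.1%, 28.4% and 24.6% of them, against 28.2%, 33.5% and 31.0% of all members. B cell markers summed to 159, 196 and 109 CPM in members and 193, 199 and 193 CPM in other αβ T cells, hepatocyte markers to 0, 1.86 and 0 CPM in members, and red cell and platelet markers to 0 CPM.

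Among the 8 genes lowest in members was Igfbp4, a marker of naive T cells in mouse, at 17.3, 71.1 and 49.5 CPM in members and 321, 245 and 283 CPM in other αβ T cells. Pdlim4, a cytoskeletal adaptor, had ratios of 0.0336, 0.249 and 0.0575 and was seen in 1, 3 and 1 members. Slc28a2b, a nucleoside transporter, had ratios of 0.0990, 0.195 and 0.0619, and St8sia6, a sialyltransferase, of 0.137, 0.307 and 0.131. Ly6c1, a surface antigen of memory and some naive T cells, had ratios of 0.117, 0.607 and 0.120, so its gap in WT HFD+HDCA was under 2-fold. The remaining lowest genes, Ampd1, Pgpep1l and Sox4, were at 3.71 CPM or less in the members of every library.

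**Figure D2:**
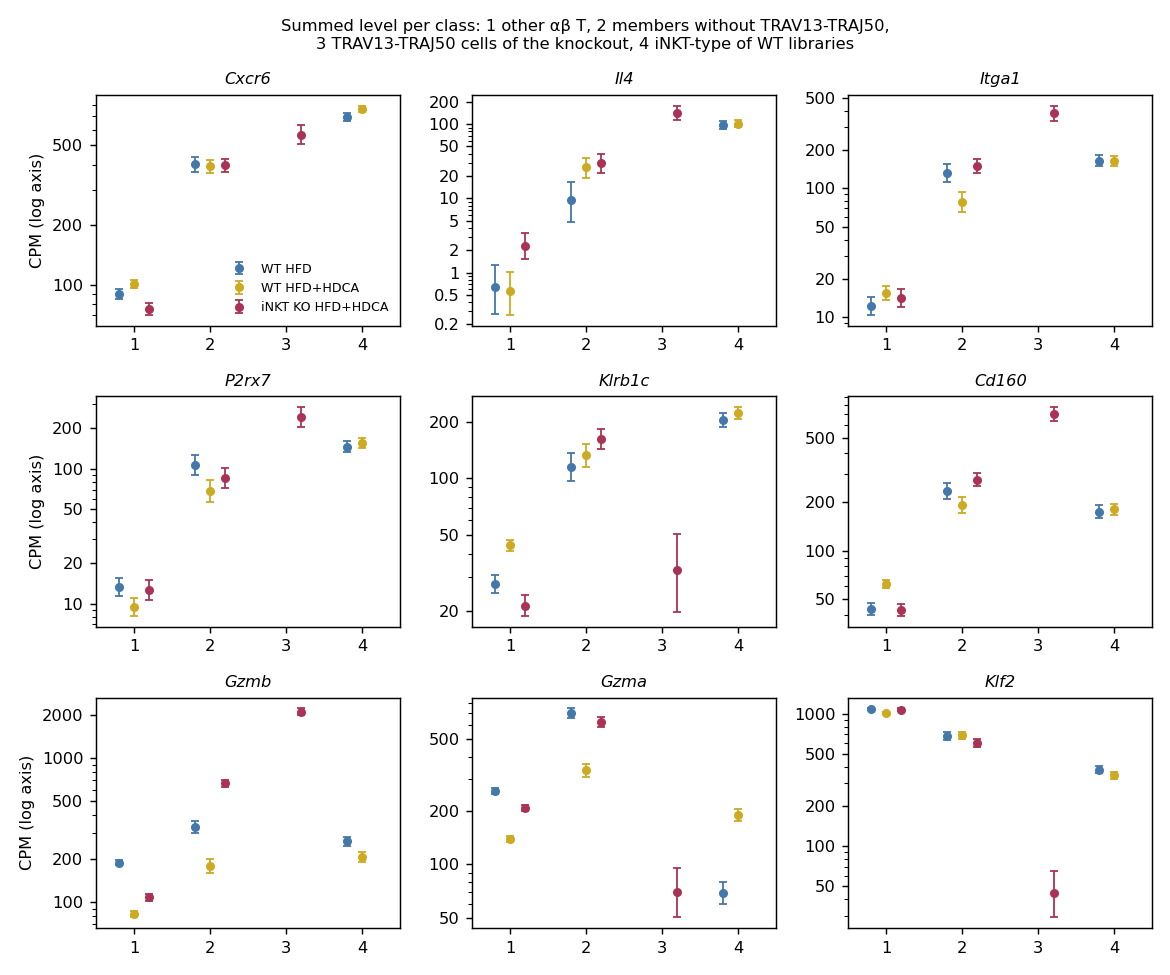
Points give the level of 9 genes (CPM of summed UMIs, log axis, exact Poisson 95% intervals) in other αβ T cells (1), members without TRAV13–TRAJ50 cells (2), TRAV13–TRAJ50 cells of the knockout (3) and WT iNKT-type cells (4), coloured by library. Cxcr6, Itga1 and P2rx7 were higher in class 2 than in class 1 in every library, and class 3 had the highest Gzmb (2096 CPM) and a low Gzma level (70.4 CPM).

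By function, genes of the innate-like programme were higher in members, apart from the rule's own genes: 18 of 20, 18 of 20 and 17 of 20 measured genes in the 3 libraries, with a median log2 ratio of 1.36, 0.77 and 1.75. Over all genes the median was 0.17, 0.11 and 0.17, with 7919 of 11891, 7802 of 12523 and 7858 of 11869 genes higher. Il2rb, the IL-15 and IL-2 receptor β chain, was at 712, 679 and 1048 CPM in members and 360.0, 421 and 367 CPM in other αβ T cells. Id2, a regulator that opposes E proteins, was at 878, 849 and 1080.1 CPM against 298, 300.1 and 225 CPM. Xcl1, the chemokine that attracts cross-presenting dendritic cells, was at 327, 320.4 and 542 CPM against 103, 131 and 60.6 CPM. Sh2d1a, the SLAM adaptor that NKT cells need to develop, ran the other way, at 97.3, 111 and 94.4 CPM against 142, 152 and 138 CPM, and so did Slamf6 (65.2, 76.1 and 39.4 CPM against 125, 124 and 129 CPM).

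Residency genes were higher in 12 of 15 in each library (median log2 1.05, 0.86 and 1.59), and recirculation genes were lower in 12, 11 and 12 of 13 (median −1.08, −0.73 and −1.46). S1pr1, the receptor for tissue exit, was at 88.7, 98.3 and 49.0 CPM against 171, 163 and 141 CPM, and Klf2, which drives it, at 679.8, 693 and 468 CPM against 1083, 1009.5 and 1075 CPM. The residency programme was not uniform: Cd69 was at 151, 236 and 203 CPM in members and 266, 262 and 244 CPM in other αβ T cells, and Itgae, the integrin of epithelial residents, at 7.85, 8.66 and 9.16 CPM against 13.1, 17.8 and 20.3 CPM. Both are residency genes by name, and both were lower in members in every library.

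NK receptor and adaptor genes were higher in 24, 24 and 25 of 26 (median log2 1.81, 1.26 and 2.15). Cd7 was at 607, 575 and 1205 CPM in members and 217, 264 and 233 CPM in other αβ T cells, and Klrk1, the activating receptor NKG2D, at 283, 279 and 353 CPM against 114, 161 and 94.1 CPM. Cd160, a receptor for HVEM, was at 235, 192 and 387 CPM against 43.5, 62.1 and 42.9 CPM. Klrb1c, which encodes NK1.1, was at 115, 133 and 130.1 CPM against 27.8, 44.2 and 21.2 CPM, and at 205 and 223 CPM in WT iNKT-type cells.

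Effector genes were higher more often than lower, with exceptions. Cytotoxic effectors were higher in 13, 12 and 14 of 16 (median log2 0.59, 0.31 and 0.94) and cytokines and chemokines in 13 of 14, 11 of 15 and 13 of 15. Ifng was at 159, 131 and 144 CPM in members and 56.7, 88.1 and 37.4 CPM in other αβ T cells. Il2, the T cell growth factor, was at 29.8, 12.4 and 39.9 CPM against 5.02, 4.18 and 3.54 CPM. The granzymes did not follow each other: Gzma (701, 333 and 492 CPM against 257, 139 and 207 CPM) and Gzmb (332, 178 and 1024 CPM against 187, 82.4 and 108 CPM) were higher in members, whereas Gzmk (65.2, 61.2 and 43.5 CPM against 158, 121 and 93.7 CPM) was lower. Ccl5, a chemokine of effector T cells, was at 7787, 6476 and 7084 CPM against 7359, 7312 and 4605 CPM, so it was higher in members of WT HFD and the knockout and lower in those of WT HFD+HDCA.

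Among lineage factors, Tbx21 of type 1 cells was at 204, 171 and 218 CPM in members and 81.9, 93.5 and 66.0 CPM in other αβ T cells, and Gata3 of type 2 cells at 77.7, 58.8 and 66.0 CPM against 46.5, 49.2 and 37.6 CPM. Il17a was at 1.57, 3.09 and 3.66 CPM in members. P2X7 and adenosine genes were higher in 8, 7 and 7 of 8 (median log2 1.05, 1.07 and 2.15), Entpd1 and Adora2a among them. Type I interferon genes, by contrast, were higher in 9, 9 and 12 of 23.

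Cell cycle genes were higher in members in 15 of 15, 15 of 15 and 12 of 15, with a median log2 ratio of 1.04, 1.67 and 0.26. Mki67, present in dividing cells, was at 89.5, 106 and 37.6 CPM in members and 27.8, 28.0 and 35.3 CPM in other αβ T cells. Stmn1 was at 83.2, 158 and 67.8 CPM against 62.2, 66.2 and 81.8 CPM. Both WT libraries thus had more of these transcripts per UMI in members than the knockout did. Some mitotic genes were seen in few members, Cenpf in 2, 8 and 3 and Ccnb2 in 2, 8 and 5.

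The members with Zbtb16 and those with Zfp683 only had different effector transcripts in all 3 libraries. Il17a was at 5.26, 8.42 and 12.3 CPM in members with Zbtb16 and at 0 CPM in those with Zfp683 only. These Il17a levels rested on few UMIs, in WT HFD fewer than the floor of 3. Gzma ran the other way, at 13.1, 33.7 and 152 CPM against 994, 507 and 637 CPM, as did Ccl5, at 3031, 3869 and 5762 CPM against 9811, 7988 and 7647 CPM. Il4 was seen in 13.2%, 22.6% and 31.9% of members with Zbtb16 and 2.88%, 3.42% and 18.8% of those with Zfp683 only. Klrb1c was seen in 44.7%, 51.6% and 37.5% against 22.1%, 23.9% and 28.5%, while Itga1 was less frequent with Zbtb16 in the WT libraries (23.7% and 27.4% against 55.8% and 34.2%) and at 61.1% against 63.4% in the knockout. Myeloid transcripts were found in 22 of 172 members with Zbtb16 (12.8%) and 2 of 407 with Zfp683 only (0.491%), and the part of these cells in the differences was not tested.

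Coreceptor classes differed as well. Il4 was at 15.0, 29.6 and 185 CPM in CD4 members, 3.81, 8.83 and 4.27 CPM in CD8 members and 13.7, 53.0 and 48.5 CPM in members with neither. Gzma was at 1373, 730.1 and 404 CPM in CD8 members, while members with neither had 27.3, 82.6 and 706 CPM. CD8 members therefore had the least Il4 in every library, although every WT HFD class had few Il4 UMIs and its CD8 members fewer than 3. The knockout was the only library of the 3 where members with neither had more Gzma than CD8 members.

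The members were compared with iNKT-type cells in the WT libraries. Of 7804 genes in WT HFD, 110 (1.41%) were at least 2-fold higher in iNKT-type cells and 183 (2.34%) lower, and of 8382 in WT HFD+HDCA 139 (1.66%) were higher and 204 (2.43%) lower. Residency genes were higher in iNKT-type cells in 8 and 9 of 15 (median log2 0.02 and 0.18). Recirculation genes were lower in iNKT-type cells than in members in 9 and 11 of 13 (median log2 −0.62 and −1.27), and interferon genes higher in 19 of 20 and 18 of 22 (median 0.33 and 0.54), against a median over all genes of −0.03 and 0.04 with 4575 of 9802 and 5599 of 10262 higher. Klf2 was at 679.8 and 693 CPM in the WT members and 379 and 344 CPM in iNKT-type cells. Gzma was at 69.4 and 188 CPM in iNKT-type cells, below the 701 and 333 CPM of members, and Itgb1, an integrin chain, was at 328 and 324 CPM against 558 and 477 CPM.

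Members shared clonotypes to a different degree in each library. In WT HFD 40 of 142 members (28.2%, 20.9% to 36.3%) were in clonotypes with at least 2 members, in WT HFD+HDCA 10 of 179 (5.59%, 2.71% to 10.0%) and in the knockout 112 of 258 (43.4%, 37.3% to 49.7%). Without TRAV13–TRAJ50 cells the knockout share was 23.2% (17.3% to 30.0%). Other αβ T cells were at 15.7%, 18.8% and 16.4%. The largest clonotype held 7, 2 and 33 members. Members of WT HFD+HDCA were thus nearly all of different clonotypes, 174 in 179 cells, although other αβ T cells of that library were not.

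The 2 largest member clonotypes of WT HFD had conventional V and J joins, and are shown because they carry Zfp683 without the receptors above. The first joined TRAV14D-3-DV8 to TRAJ4, with 7 members among 15 cells, 5 of them with Cd4. The second joined TRAV7-5 to TRAJ9 and TRBV13-3 to TRBJ2-7, with 7 members among 11 cells, 6 of them with CD8 transcripts.
WT HFD clone 1 α: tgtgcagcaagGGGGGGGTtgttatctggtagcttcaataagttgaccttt
WT HFD clone 1 β: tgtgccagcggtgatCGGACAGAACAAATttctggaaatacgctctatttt
WT HFD clone 2 α: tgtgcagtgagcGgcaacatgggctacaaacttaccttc
WT HFD clone 2 β: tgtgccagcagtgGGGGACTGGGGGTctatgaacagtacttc
All 14 members of these clonotypes had Zfp683 and none had Zbtb16. In WT HFD, 28 clonotypes of at least 2 cells held a member, and 56 of their 213 cells were members (26.3%). In WT HFD+HDCA 26 such clonotypes held 31 members among 109 cells (28.4%), and in the knockout 32 held 126 among 199 (63.3%). These clonotypes were taken because they held a member, which raises the shares. Leaving that member out, each member was paired with every other cell of its clonotype. The other cell was a member in 27.2% of 486 pairs, 10.9% of 92 and 82.5% of 1805. Large clonotypes weigh most in these pairs, in the knockout the clone with 33 members among 37 cells. Cells of a clonotype are not independent of each other.

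**Figure D3:**
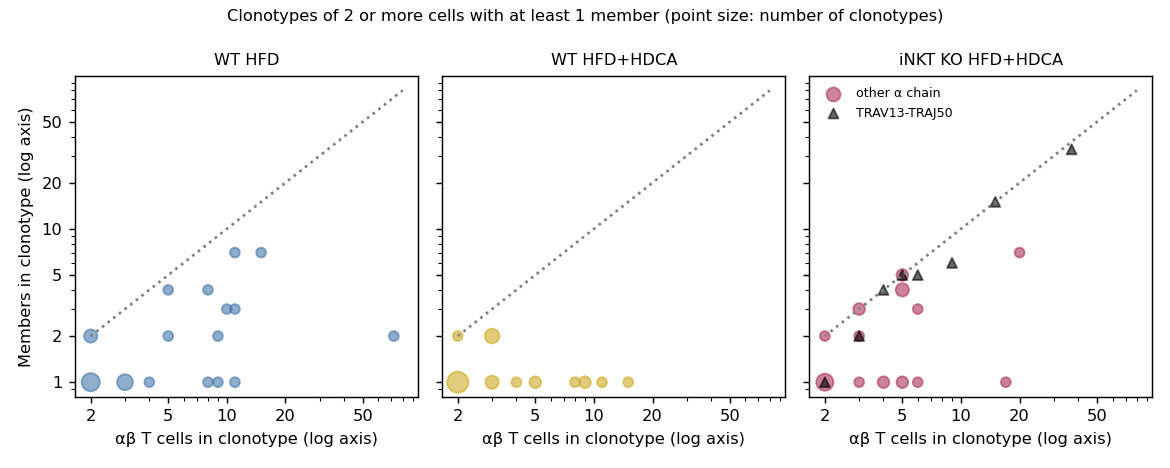
Clonotypes of at least 2 cells with at least 1 member, by library, with all αβ T cells of the clonotype on the horizontal and its members on the vertical axis (both log; point size gives the number of clonotypes, and on the dotted line all cells are members). Knockout TRAV13–TRAJ50 clonotypes (triangles) lie on or near the line (33 of 37 and 15 of 15 cells), and the WT HFD clonotypes with most members lie below it (7 of 15 and 7 of 11).

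In the knockout, 5 of the 8 largest member clonotypes had the TRAV13–TRAJ50 α chain. The clone with 37 cells had 33 members, 32 of them with neither coreceptor and 14 with Il4, and the clone with 15 cells had 15 members, all with neither coreceptor and none with Il4 or Zbtb16. Another with 9 cells had 6 members, all with Cd4. Outside TRAV13–TRAJ50, a clone joining TRAV16N to TRAJ2 had 5 members in 5 cells, all with Il4 and neither coreceptor and 4 with Zbtb16, and a clone joining TRAV12N-2 to TRAJ6 had 5 members in 5 cells, all with CD8 transcripts. The clones with 37 and 15 cells share the α CDR3 J50-1, and Il4 was seen in 14 of 33 and 0 of 15 of their members.

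Other α joins also gathered members. Of V–J pairs with at least 5 cells, 44, 115 and 115 in the 3 libraries, 3, 2 and 8 had at least as many members as non-members. The 8 of the knockout include TRAV13N-3 with TRAJ50. Several pairs were few clonotypes: those of WT HFD came from 1, 2 and 1, and those of WT HFD+HDCA from 9 and 4. The other knockout pairs came from 2 (TRAV10D with TRAJ12, TRAV2 with TRAJ9) to 10 clonotypes (TRAV16N with TRAJ2). The pair TRAV9N-3 with TRAJ9 had 6 members among 9 cells in WT HFD+HDCA, all 9 with different CDR3s; the 6 members all had Cxcr6, 5 had Zbtb16, 3 had Il4 and 5 had neither coreceptor. In WT HFD it had 1 member in 2 cells and in the knockout no cell. The pair TRAV16N with TRAJ2 had 9 members among 14 cells of the knockout, 9 with Cxcr6 and 6 with Il4. The 9 members held 3 different α CDR3s, and 5 of the 9, all with Il4, were the 1 clone given above. The pair had no member in 3 cells of WT HFD+HDCA. These pairs were chosen after their values were seen.

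The Jα segments were compared in blocks. TRAJ1 to TRAJ17 made up 27.7%, 25.0% and 65.6% of α contigs of members and 22.2%, 25.2% and 91.5% of those of other αβ T cells. Without TRAV13–TRAJ50 cells the share in knockout members was 91.8%, and counted once per distinct CDR3 it was 88.2% in knockout members and 92.3% in other αβ T cells. TRAJ50 made up 1.94%, 3.50% and 28.2% in members (22.9% to 33.9% in the knockout), against 2.28%, 2.37% and 0.960%. TRAJ4 had 7.10%, 3.50% and 16.5% in members and 1.95%, 2.03% and 8.26% in other αβ T cells, and in the knockout the 45 member contigs held 42 different CDR3s. Knockout members were therefore rich in TRAJ50 through few sequences and in TRAJ4 through many.

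TRBV13, the Vβ8 family that iNKT cells favour, was also more frequent in members. Counting each distinct CDR3 once, it made up 30.0% in WT HFD (22.0% to 39.0%), 35.7% in WT HFD+HDCA (28.8% to 43.1%) and 49.1% in the knockout (41.5% to 56.8%), against 26.4%, 22.1% and 27.0% in other αβ T cells. Without TRAV13–TRAJ50 cells it was 45.1% in the knockout (37.2% to 53.1%). TRBV13-2 made up 15.0%, 17.0% and 28.0%, against 12.3%, 10.5% and 12.1%, and 24.1% in the knockout without those cells (17.7% to 31.4%). The WT HFD interval for TRBV13 included the value of other αβ T cells, and the intervals of the other libraries did not.

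**Figure D4:**
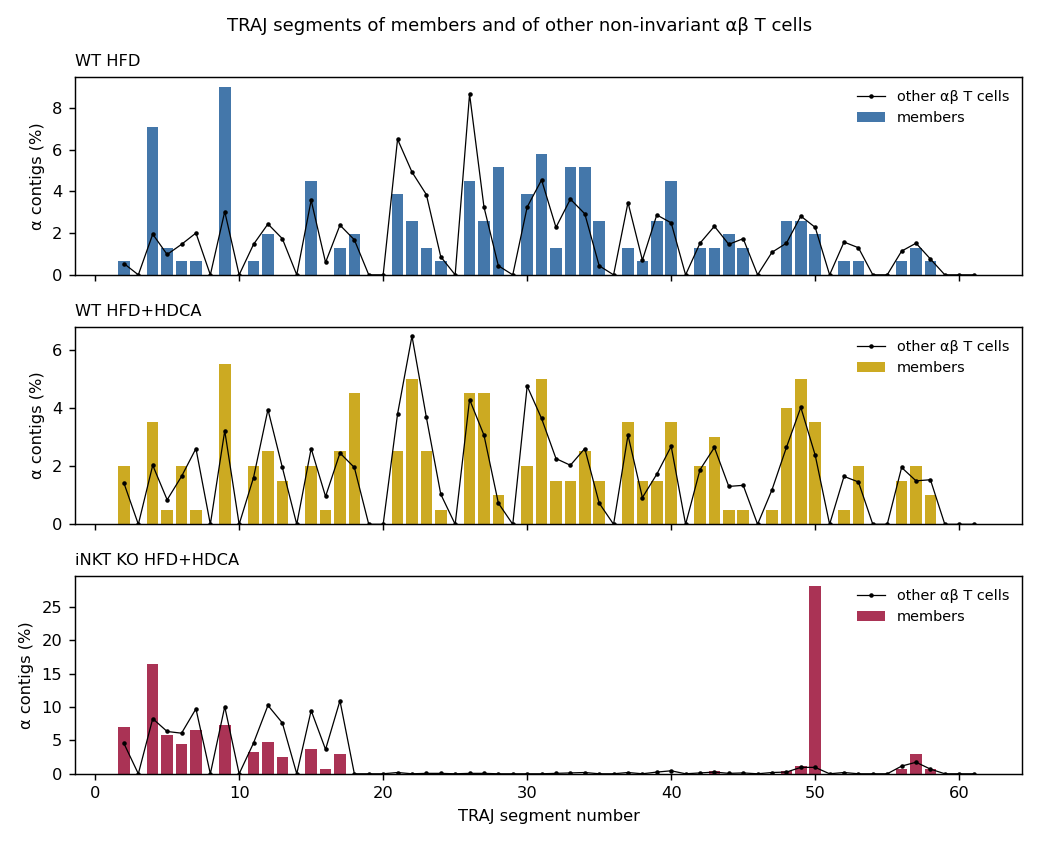
Share of α contigs (vertical axis, %, a different range in each panel) by TRAJ segment number, as bars for members and a line for other αβ T cells, 1 panel a library. In the knockout, TRAJ19 to TRAJ49 hold few contigs of either class (1.83% of those of members) and TRAJ50 stands out in members (28.2%).

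HDCA in WT mice went with few gene differences in members, and several of the largest rested on single cells. Of 6991 genes with at least 50 UMIs, 53 (0.758%) were at least 2-fold higher with HDCA and 54 (0.772%) at least 2-fold lower, against 63 (0.545%) and 62 (0.537%) of 11556 in other αβ T cells. The class II genes H2-Eb1 (94.6 against 3.92 CPM), H2-Ab1 (119 against 5.49 CPM) and H2-Aa (99.6 against 6.28 CPM), which present peptides on professional antigen-presenting cells, led the list, but 90.8%, 95.3% and 90.7% of their UMIs came from 1 cell. Cd74, their chaperone, was at 325 against 65.9 CPM with 74.7% from 1 cell. Without cells holding myeloid or NK transcripts, the ratios were 0.907 (0.231 to 3.76), 0.324 (0.0541 to 1.42), 0.661 (0.204 to 2.09) and 0.536 (0.346 to 0.823), so that of these 4 only the interval of Cd74 lay below 1.

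The remaining higher genes were less dominated by 1 cell, which held 28.6% of the UMIs of Cenpf, 24.4% of Ccnb2, 36.5% of Igfbp4 and 20.9% of Ear2. Cenpf, a kinetochore protein, was at 43.3 CPM with HDCA in 8 cells and 4.71 CPM without in 2 cells, a ratio of 9.19 (4.02 to 25.9), against 1.02 in other αβ T cells. Ccnb2, cyclin B2, was at 50.7 against 10.2 CPM, a ratio of 4.97 (2.75 to 9.73), with 8 and 2 cells. Igfbp4 was at 71.1 against 17.3 CPM, a ratio of 4.12 (2.59 to 6.83), while other αβ T cells had a ratio of 0.761. Ear2, an RNase of the eosinophil family, was at 26.6 against 6.28 CPM in 9 and 3 cells. All 4 were seen in 12 members or fewer of each library.

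Lower genes with HDCA included Usp28, a deubiquitinase, at 9.28 against 31.4 CPM, a ratio of 0.295 (0.152 to 0.547) from 12 and 25 cells. Ptpn13, a phosphatase, was at 14.2 against 38.5 CPM, a ratio of 0.370 (0.215 to 0.619) from 17 and 31 cells. Furin, a proprotein convertase, was at 19.8 against 61.2 CPM, and Pola1, the DNA polymerase α subunit, at 14.8 against 45.5 CPM. Single cells gave most UMIs of Il1b (64.6%), H2ac15 (73.0%), Phactr2 (61.5%) and Ccl4 (75.7%), which completed the list. Ccl4, an inflammatory chemokine, was at 114 against 307 CPM, but without the cell with most of its UMIs in each library its ratio was 1.03. In other αβ T cells Ccl4 was also lower with HDCA, with a ratio of 0.420 (0.398 to 0.444). Il1b was lower there too, at 0.613 against 2.02 CPM, whereas H2ac15 and Phactr2 had ratios of 1.05 and 0.953.

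Among the genes of interest in members, the WT libraries differed as follows. Gzma was at 333 CPM with HDCA and 701 CPM without, a ratio of 0.476 (0.427 to 0.530), and Gzmb at 178 and 332 CPM, a ratio of 0.535 (0.459 to 0.623); in other αβ T cells the Gzmb ratio was 0.441. Itga1 was at 79.8 and 132 CPM, and P2rx7 at 68.0 and 108 CPM, a ratio of 0.633 (0.488 to 0.819). Cxcr6, at 393 and 403 CPM, had a ratio of 0.975 (0.867 to 1.10), so any difference was within counting error. Il4 was at 26.0 CPM (18.7 to 35.1) with HDCA and 9.42 CPM (4.87 to 16.5) without.

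As groups, recirculation genes were higher with HDCA in 12 of 13 (median log2 0.40), Il7r at 536 against 405 CPM among them, while in other αβ T cells 1 of 13 was higher. Cell cycle genes were higher in 13 of 15 (median 0.52), against 10 of 15 in other αβ T cells. Over all genes 3982 of 9325 were higher (median −0.06). Cytotoxic effectors were lower in 12 of 16, NK receptors in 15 of 25, residency genes in 10 of 14 and innate-like genes in 12 of 20 (median −0.04), whereas in other αβ T cells innate-like genes were higher in 16 of 19 and NK receptors in 21 of 26. Heat shock genes were lower in 10 of 11 in members and 11 of 12 in other αβ T cells. Lipid uptake and oxidation genes were higher in 7 of 13 (median 0.01).

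The knockout was compared with WT HFD+HDCA, which has the same diet and is also the HDCA side of the comparison above, so both comparisons share that library. Of 7753 genes, 106 (1.37%) were at least 2-fold higher in knockout members and 103 (1.33%) lower, and without TRAV13–TRAJ50 cells 64 (0.875%) and 84 (1.15%) of 7311. In other αβ T cells 73 (0.636%) and 98 (0.854%) of 11482 were higher and lower. Genotype, any segment of chromosome 14 that travels with the Jα18 deletion, and the changed α repertoire cannot be told apart in these libraries. Whether such a segment differs between the libraries was not tested.

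Granzyme B was the most abundant of the genes that were highest in knockout members. Gzmb, the granzyme that triggers apoptosis of target cells, was at 1024 CPM in the knockout (181 cells) and 178 CPM in WT HFD+HDCA (45 cells), a ratio of 5.77 (5.10 to 6.55). Without TRAV13–TRAJ50 cells the ratio was 3.74 (3.28 to 4.27), and in other αβ T cells 1.32 (1.22 to 1.42). Gzmc, a further granzyme, was at 56.8 against 2.47 CPM from 13 and 4 cells, with 45.2% of its UMIs in 1 cell. In other αβ T cells Gzmc ran the other way, with a ratio of 0.207 (0.129 to 0.318). Gzmb and Gzmc are on chromosome 14, although the share of that chromosome among all genes was not counted. So are Traj18 and 2 more of the highest genes. These are Mtmr9, a myotubularin-related protein, at 149 against 15.5 CPM, a ratio of 9.66 (6.43 to 15.1) that was 2.07 in other αβ T cells, and Xkr6, at 26.6 against 3.09 CPM, with a ratio of 8.59 and of 4.70 in other αβ T cells.

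The inducible heat shock genes Hspa1b (150.2 against 17.9 CPM, ratio 8.38, 5.72 to 12.7) and Hspa1a (60.9 against 9.28 CPM) were also among the highest, and in other αβ T cells their ratios were 2.89 and 2.20. The heat shock list as a whole was not higher, with 6 of 11 up and Hspa8 at 2158 against 2412 CPM. Ccdc136 was at 74.7 against 9.28 CPM and Rasgrf1, a Ras exchange factor, at 21.1 against 2.47 CPM, with ratios of 8.05 and 8.52 that were 4.52 and 2.91 without TRAV13–TRAJ50 cells. In other αβ T cells Rasgrf1 was at 0 in WT HFD+HDCA.

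**Figure D5:**
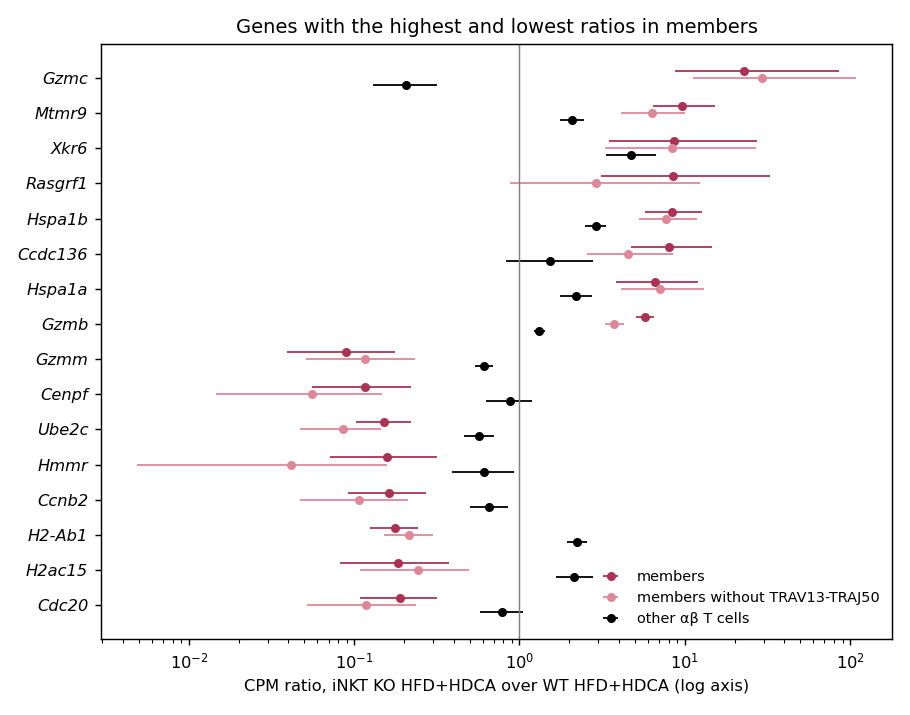
Ratio of knockout over WT HFD+HDCA levels for the named genes in members, in members without TRAV13–TRAJ50 cells and in other αβ T cells, with conditional exact 95% intervals (log axis). Gzmb lies at 5.77, 3.74 and 1.32 and Gzmm at 0.0889, 0.116 and 0.611.

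Lower in knockout members were Gzmm, the granzyme of NK and innate-like T cells, and a set of mitotic genes. Gzmm was at 4.12 CPM from 3 cells in the knockout and 46.4 CPM from 22 cells in WT HFD+HDCA, a ratio of 0.0889 (0.0391 to 0.178), against 0.611 in other αβ T cells. WT HFD members had 11.8 CPM. The mitotic genes Cenpf (5.04 against 43.3 CPM), Ube2c (16.0 against 105 CPM), Hmmr (4.58 against 29.1 CPM), Ccnb2 (8.25 against 50.7 CPM) and Cdc20 (8.70 against 45.8 CPM) came from 3 and 8, 3 and 8, 2 and 6, 5 and 8, and 9 and 12 cells. H2-Ab1 completed the list on the 1 WT cell that gave 95.3% of its UMIs, together with H2ac15 (4.58 against 24.7 CPM). Without the cell with most H2-Ab1 UMIs in each library, knockout included, the H2-Ab1 ratio was 1.40.

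Cell cycle genes as a list were lower in 13 of 15 in knockout members (median log2 −1.40; −1.63 without TRAV13–TRAJ50 cells), Mki67 at 37.6 against 106 CPM. Cytotoxic effectors were higher in 14 of 16, with and without those cells, and in other αβ T cells lower in 13 of 16. Nkg7, a granule protein, was at 1698 against 1294 CPM and Ctsw, a cathepsin of cytotoxic cells, at 729 against 533 CPM. Residency genes were higher in 11 of 15 (10 of 15 without those cells) and in other αβ T cells lower in 11 of 15, Rgs1 at 323 against 152 CPM. Recirculation genes were lower in 12 of 13 either way, with a median of −0.52 that became −0.18 without TRAV13–TRAJ50 cells, and in other αβ T cells were higher in 11 of 13. Over all genes 5299 of 9849 were higher (median 0.03).

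P2X7 and adenosine genes were higher in 7 of 8 in knockout members (median log2 0.63; 6 of 8 and 0.26 without TRAV13–TRAJ50 cells), P2rx7 at 126 against 68.0 CPM and Entpd1, the ectoenzyme CD39, at 86.6 against 48.2 CPM. Interferon genes were lower in 16 of 20 in members and 20 of 23 in other αβ T cells, Ifi27l2a at 199.7 against 426 CPM in members. NK receptor genes were higher in 14 of 25 (median log2 0.04; 19 of 25 and 0.25 without TRAV13–TRAJ50 cells), with Cd7 at 1205 against 575 CPM, and were lower in 23 of 26 in other αβ T cells. Il4 was at 53.6 CPM (44.3 to 64.2) in the knockout and 26.0 CPM (18.7 to 35.1) in WT HFD+HDCA, and at 29.5 CPM in the knockout without TRAV13–TRAJ50 cells. The last value lies inside the WT HFD+HDCA interval, so without those cells the difference in level was within counting error. The share of knockout members with Il4, given above, was also higher without those cells than in WT HFD+HDCA, but lay inside the WT HFD+HDCA interval. What the higher Il4 rested on was not tested.

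The 87 TRAV13–TRAJ50 cells, of which 77 were members, were singled out after the receptors were seen. They differed from the knockout members without that receptor, but 52 of the 87 came from 2 clonotypes, which weigh most in their shares and levels. Neither coreceptor was seen in 74.7% of them (64.3% to 83.4%), Cd4 in 24.1% and CD8 transcripts in 1.15%. Cxcr6 was seen in 94.3%, Itga1 in 85.1% (75.8% to 91.8%), Il4 in 43.7% (33.1% to 54.7%) and Ifng in 62.1%, while Klrb1c was seen in 13.8%. Of 52 cells with J50-1, from 2 clonotypes, 51 had neither coreceptor, none had Cd4 and 16 had Il4. Of 14 cells with J50-2, from 3 clonotypes, 13 had Cd4 and 9 had Il4.

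Against knockout members without the receptor, 152 of 6161 genes (2.47%) were at least 2-fold higher in TRAV13–TRAJ50 cells and 244 (3.96%) lower. Il4 was at 142 against 29.5 CPM, a ratio of 4.82 (3.35 to 7.01). Il2 was at 99.6 against 21.1 CPM, a ratio of 4.72 (3.05 to 7.40). Ldhb, a lactate dehydrogenase subunit, was at 106 against 21.1 CPM, Slamf1, a receptor of the SLAM family used in NKT selection, at 149 against 39.8 CPM, and Ccdc136 at 172 against 42.2 CPM. Fmnl3 and Stk32c had ratios of 4.20 and 3.87, and Lyz2 (3.92) had 97.7% of its UMIs in 1 cell. Gzmb was at 2096 against 668 CPM, Cd160 at 704 against 274 CPM, P2rx7 at 244 against 85.6 CPM and Itga1 at 383 against 149 CPM. Gzma ran against Gzmb, at 70.4 against 626 CPM.

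Lower in TRAV13–TRAJ50 cells were Cd8b1 (1.72 against 403 CPM) and Cd8a, which was at 0 against 289 CPM (a ratio of at most 0.0178, taking 3 UMIs over the TRAV13–TRAJ50 cells as the floor). Ncr1, the NK receptor NKp46, was at 1.72 against 87.4 CPM, Ccr7, the lymph node chemokine receptor, at 3.43 against 158 CPM, and Il18r1, a receptor chain for IL-18, at 3.43 against 102 CPM. Klra7, Dpp4 and Igfbp4 were the other lowest genes, with ratios of 0.0457, 0.0438 and 0.0266. Recirculation genes were lower in 12 of 12 (median log2 −2.46), Klf2 at 44.6 against 602 CPM. NK receptors were lower in 19 of 23 (median −1.65), with Cd7 (2002 against 926 CPM) among the 4 that were higher. P2X7 and adenosine genes were higher in 7 of 8 (median 1.08). Over all genes 4702 of 8718 were higher (median 0.05).

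Set beside the iNKT-type cells of WT HFD+HDCA, which differ in genotype too, 192 of 7769 genes (2.47%) were at least 2-fold higher in TRAV13–TRAJ50 cells and 357 (4.6%) lower. Id2 was at 1439 against 1507 CPM, a ratio of 0.954 (0.886 to 1.03), whereas Cxcr6 was at 565 against 759 CPM. Il4 was at 142 CPM (113 to 177) in TRAV13–TRAJ50 cells and 101 CPM (91.0 to 113) in the iNKT-type cells. Gzmb was at 2096 against 205 CPM, Cd7 at 2002 against 396 CPM and Cd160 at 704 against 181 CPM, and Itga1 at 383 against 163 CPM. NK receptor genes were lower in 16 of 22 (median log2 −0.91) and recirculation genes in 10 of 11 (median −1.28), against a median over all genes of 0.01. TRAV13–TRAJ50 cells thus had as little of the recirculation transcripts as iNKT-type cells or less, and more Gzmb.

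Transcripts of γδ receptor segments went with the same cells. Trgv2 was at 66.7, 106 and 280.3 CPM in members, 22.1, 28.7 and 38.9 CPM in other αβ T cells and 174 and 221 CPM in WT iNKT-type cells. In TRAV13–TRAJ50 cells it was at 731 CPM, against 134 CPM in knockout members without the receptor. Trdc, the δ constant gene that a completed α rearrangement on the same chromosome copy removes, was at 80.7 against 8.44 CPM. Markers of γδ T cells summed to 129, 131 and 316 CPM in members, from 5, 6 and 5 of 6 measured genes, against 34.7, 44.1 and 49.0 CPM in other αβ T cells.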

How the data were processed

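CD45+ liver cells of 3 groups were profiled with a 10x Genomics RNA library and a TCR library each. The authors deposited filtered matrices of UMI counts per gene and barcode (33696 features) and filtered contig annotations, made with Cell Ranger 8.0.1 per the file headers; the submitters' processing notes name both mm10 and GRCm39, and for the annotation release the sources used here give nothing. Deposited counts were used unscaled apart from CPM of summed UMIs.

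Barcodes below 200 genes or at 10% or more mitochondrial UMIs were dropped, as were doublets called by Scrublet (scanpy 1.11.5; Python 3.11.15, numpy 2.4.6, scipy 1.17.1, pandas 2.3.3, matplotlib 3.10.9). A clonotype is the set of CDR3 nucleotides of all contigs of a barcode. UMIs were summed per library and class. With 1 library a group there is no test: genes with at least 50 UMIs in the 2 sums compared were counted as higher or lower at 2-fold, and lists use genes with at least 20 UMIs. A level of 0 was set against a floor of 3 UMIs.

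Genes named were the 8 highest and 8 lowest ratios of each group comparison (at least 1.5-fold, at least 5 cells in the higher library) and the 12 highest and 8 lowest between members and other αβ T cells that kept their direction at 1.5-fold in all 3 libraries. Receptor segments, predicted, mitochondrial, ribosomal and sex-linked genes and the rule's own genes were left out. Up to 4 genes with most UMIs of each of 25 lists, and a fixed set of markers and effectors, were added. Members and lists were chosen with earlier results of these data known. The ratios and their intervals were tried on simulated counts drawn independently for each gene, without cells or clonotypes. That trial does not cover sums in which 1 cell or clonotype weighs most. Alternatives to the rule, filters, thinning and scaling were tried, and TRAV13–TRAJ50 cells, cells with myeloid or NK transcripts, and the cell with most UMIs of a gene were left out as alternatives chosen after seeing the data.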

Additional observations from a re-analysis of the deposited data

How the results depend on the processing

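No paired analysis was possible because each group has 1 library and no replicate numbers. Of the shares and gene counts, 92 values moved by less than counting error (or, for counts, stayed within 1.5 times) and 42 moved more; of single genes 571 did not move, 169 moved and 16 changed direction. No share or count moved when exactly 1 TRA and 1 TRB contig was asked for, without a filter on cells, or with median-of-ratios scaling.

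Shares are given for WT HFD, WT HFD+HDCA and the knockout. With at least 2 UMIs of the rule's genes, members were 3.44%, 2.67% and 9.29% of αβ T cells, and with 1 random draw of 2000 UMIs from each cell 3.11%, 3.15% and 8.01%. With 1 cell per clonotype they were 6.37% in WT HFD and 11.0% in the knockout. Without cells holding myeloid or NK transcripts WT HFD was at 6.87%, and without TRAV13–TRAJ50 cells the knockout was at 11.1%. Members with neither coreceptor were 40.7%, 65.8% and 73.0% after thinning and 47.8% in WT HFD+HDCA with at least 2 UMIs. In the knockout they were 45.6% with 1 cell per clonotype, 47.6% without the largest clonotype and 44.8% without TRAV13–TRAJ50 cells. Members in clonotypes with at least 2 members were 18.3% in WT HFD and 56.9% in the knockout with at least 2 UMIs, and in the knockout 35.1% without the largest clonotype and 23.2% without TRAV13–TRAJ50 cells.

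Counts of genes at 2-fold depended on depth and on the minimum. For HDCA in WT members, 6 were higher and 4 lower after thinning, against 191 and 210 at a minimum of 20 UMIs and 2392 and 2126 with no minimum. For the knockout the counts were 26 and 15 after thinning, 69 and 57 with 1 cell per clonotype, 290 and 302 at 20 UMIs and 2617 and 2329 with no minimum, with 64 higher without TRAV13–TRAJ50 cells. Between members and other αβ T cells 67 were higher after thinning, 255 at 20 UMIs and 526 with no minimum, and 128 were lower with at least 2 UMIs of the rule's genes, 93 at 20 UMIs and 1048 with no minimum.

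Direction changed for Ccl4 with HDCA (ratio 1.08 with at least 2 UMIs, 1.92 with 1 cell per clonotype, 2.73 thinned, 1.03 without its top cells) and for H2-Ab1 in the knockout (3.28 with at least 2 UMIs, 5.55 with 1 cell per clonotype, 1.68 without cells holding myeloid or NK transcripts, 1.40 without its top cells). With HDCA it changed for Il1b with 1 cell per clonotype (1.28) and Furin after thinning (1.20). Without cells holding myeloid or NK transcripts it changed with HDCA for H2-Eb1 (0.907), H2-Ab1 (0.324), H2-Aa (0.661) and Cd74 (0.536), and between members and other αβ T cells for Apoe in WT HFD (0.515) and Csf1r in the knockout (0). The cause was not tested. Single libraries, unknown numbers of mice and few molecules per receptor contig limit every comparison.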
